A study of Mus musculus with 9 samples.

Results

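The complement and plasminogen activation genes described here are 9 genes of the 56691 in the deposited table, found by an exact match of the gene symbol. They are C1qa, C1qb and C1qc, which encode the chains of C1q, the recognition protein of the classical pathway; C3, the central complement component; Cfp, properdin, which stabilises the alternative pathway convertase; C3ar1 and C5ar1, the receptors of the fragments C3a and C5a; and Plau and Plaur, urokinase and its receptor. The set was chosen by name with the counts, the FPKM and the differences between all 3 groups in these same libraries in view, so their levels and differences between groups are given as a description and without a test.

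RNA was sequenced from RAW264.7 cells, a mouse macrophage line that fuses into osteoclast-like cells under the cytokine RANKL. There were 3 groups of 3 libraries: control cells without RANKL, cells given RANKL at 50 ng/mL (RANKL), and cells given RANKL with the nucleoside uridine (RANKL + UD). Cells were collected after 72 h, which the labels give as 3 days, and the dose of uridine in these libraries is not given in the sources used here. All 9 libraries come from 1 cell line, and nothing states whether the 3 libraries of a group came from separate cultures, so the spread between them may be technical.

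Complement is a cascade of plasma proteins that is started by C1q on antibody, by lectins on sugars, or by the alternative pathway, where properdin holds the C3 convertase together. All routes cleave C3, which releases C3a, and then C5, which releases C5a, and both fragments act on receptors of myeloid cells. Macrophages make many complement components themselves. Urokinase cleaves plasminogen to plasmin, which degrades fibrin and matrix, and its receptor Plaur holds the enzyme at the surface of macrophages and other migrating cells.

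The deposited values were the count of reads on each gene and the FPKM, a level per length of exon and per library total that can be compared between genes. Totals ranged from 15951800 to 19746862 counts. Macrophage markers were present in all groups, and their summed level over 8 genes was 9420 to 10010 FPKM in control, 2528 to 2772 in RANKL and 2205 to 2339 in RANKL + UD. Most of this sum was Lyz2, at a mean of 8000, 1430 and 1290 FPKM. Cd68 was higher in RANKL than in control, at 782 against 549 FPKM, and the rest were lower. In RANKL + UD against RANKL, Adgre1 was higher (12.6 against 10.1 FPKM), the libraries of Fcgr1 overlapped and the rest were lower. The summed level of 9 osteoclast markers was 46.9 to 50.1 FPKM in control, 2641 to 2844 in RANKL and 1666 to 1703 in RANKL + UD. The part of this shift in cell state in the results for the 9 genes was not tested, and in bulk RNA fewer cells of a type and less RNA per cell cannot be told apart. Markers of hepatocytes, the main source of plasma complement, and of fibroblasts, T cells, B cells, endothelial and epithelial cells summed to at most 0.34 FPKM per list in any library, and 0 of these genes reached a mean of 1 FPKM in any group.

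Of the 9 genes, 6 had at least 1 FPKM in every library, and all 6 were above this level in each group. In RANKL against control, C3, C3ar1, C5ar1 and Plaur were lower and Cfp and Plau were higher. Where uridine was present with RANKL, C3 and Cfp were higher than in RANKL, and C3ar1, Plau and Plaur were lower. The C5ar1 libraries of RANKL and RANKL + UD overlapped. Below, a share of another group is a ratio of mean FPKM, and a log2 difference is that of the edgeR fit with TMM scaling, so the pair may differ slightly. The C1q chain genes were near the limit of detection in control and at or near 0 counts in the other groups.

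**Figure D1:**
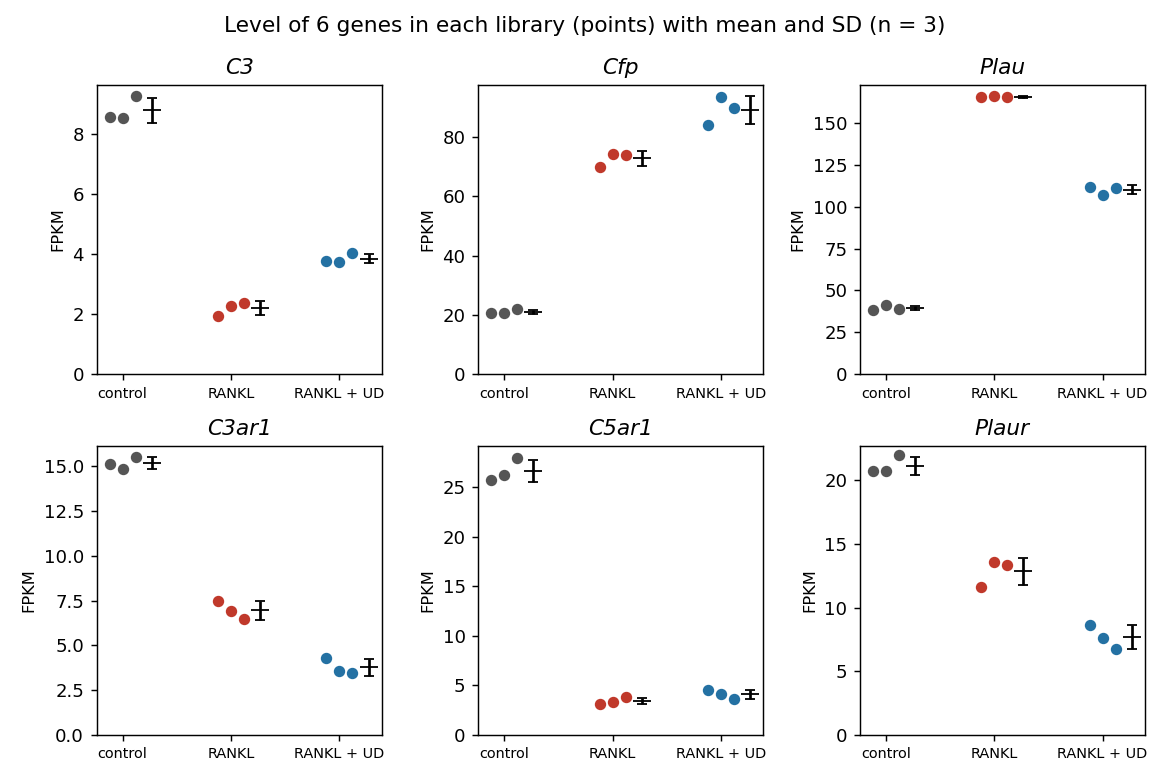
FPKM (vertical axes, linear, from 0) of the 6 expressed genes in each library (points), with the mean and SD of 3 libraries beside them. The groups stand apart in each panel except C5ar1, where the RANKL libraries at 3.12 to 3.79 overlap the RANKL + UD libraries at 3.63 to 4.49.

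The calls of edgeR's quasi-likelihood test over all 11995 genes tested, at an adjusted p under 0.05, serve here as a background only. In RANKL against control, 27.3% of all genes tested were called higher and 30.2% lower, and of the 6 genes 2 were called higher and 4 lower. The shares in RANKL + UD against RANKL were 18.6% higher and 20.2% lower, against 2 and 3 of the 6. Those in RANKL + UD against control were 26.7% higher and 27.3% lower, against 2 and 4 of the 6. The FPKM of the compared groups did not overlap for 61.7%, 51.7% and 59.9% of all genes tested in these comparisons, and for 6, 5 and 6 of the 6 genes. Nothing is read from these shares, because the 9 genes were selected on values of the same contrasts.

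The C1q chain genes lie side by side on the minus strand of chromosome 4, within 18675 bases (136607440 to 136626114 in the coordinates of the table). C1qa (ENSMUSG00000036887) had 0, 4 and 5 reads in the control libraries and 0 reads in each library of the other groups. C1qb (ENSMUSG00000036905) had 8, 11 and 6 reads in control, or 0.43 ± 0.08 FPKM (SD, n = 3), and 0 reads in all RANKL and RANKL + UD libraries. C1qc (ENSMUSG00000036896) had 2, 1 and 11 reads in control, 2, 0 and 0 in RANKL and 0 in each RANKL + UD library. C1qb was thus the only chain whose control libraries all lay above the RANKL libraries.

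A sum of 3 reads over a group was taken as the floor. With the RANKL sum set at that floor, the control level was 3.32-fold that of RANKL for C1qa and 9.23-fold for C1qb. With the RANKL + UD sum set there, control was at 3.04-fold, 8.44-fold and 4.73-fold of it for C1qa, C1qb and C1qc. For C1qc the control level was 7.76-fold that of RANKL with a 95% counting interval of 1.78 to 70.3, and 11 of its 14 control reads came from 1 library. The values on the floor leave out the counting error of the control sums, so they are not lower limits. The interval of C1qc covers counting error only. No difference between RANKL and RANKL + UD was detectable for the C1q chains at this depth, since both groups were at or under the floor.

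**Figure D2:**
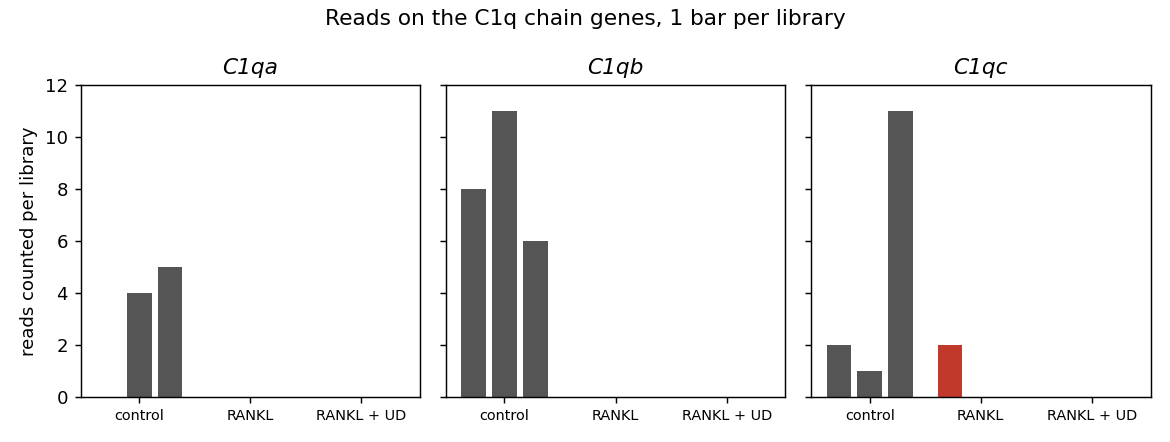
Reads counted on C1qa, C1qb and C1qc (vertical axis), 1 bar per library in the order of the replicates, for control, RANKL and RANKL + UD. Reads lie almost wholly in control, where the highest library has 11, and the only other reads are 2 on C1qc in 1 RANKL library.

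C3 (ENSMUSG00000024164, chromosome 17, 57510970 to 57535136, minus strand) encodes the protein on which all complement pathways meet. It stood at 8.57, 8.52 and 9.26 FPKM in control, at 1.94, 2.27 and 2.38 in RANKL and at 3.78, 3.74 and 4.02 in RANKL + UD. The groups do not overlap, and the RANKL + UD libraries lie between the other groups. The RANKL level was 25.0% of control, a log2 difference of -1.91 ± 0.09 (SE). With uridine the level was 175% of RANKL, a log2 difference of 0.72 ± 0.10, and 43.8% of control.

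Cfp (ENSMUSG00000001128, chromosome X, 20791693 to 20797794, minus strand) encodes properdin, the positive regulator of the alternative pathway. Its level was 20.72, 20.57 and 21.85 FPKM in control, 70.01, 74.30 and 74.08 in RANKL and 84.16, 93.58 and 89.74 in RANKL + UD. Here the order was control, RANKL, RANKL + UD, with no overlap. RANKL was at 346% of control, a log2 difference of 1.88 ± 0.06. The step from RANKL to RANKL + UD was smaller, at 122% and 0.21 ± 0.05. C3 and Cfp were thus on opposite sides in RANKL against control and on the same side in RANKL + UD against RANKL.

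C3ar1 (ENSMUSG00000040552, chromosome 6, 122824097 to 122833120, minus strand) encodes the receptor of C3a. The libraries were at 15.14, 14.87 and 15.54 FPKM in control, 7.49, 6.91 and 6.45 in RANKL and 4.31, 3.55 and 3.43 in RANKL + UD. Each step down was of similar size, with 45.8% of control in RANKL (log2 difference -1.04 ± 0.09) and 54.1% of RANKL in RANKL + UD (-0.97 ± 0.09). RANKL + UD was at 24.8% of control.

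C5ar1 (ENSMUSG00000049130, chromosome 7, 15980668 to 15993465, minus strand) encodes the receptor of C5a, which draws and activates myeloid cells. It stood at 25.80, 26.23 and 27.98 FPKM in control, 3.12, 3.34 and 3.79 in RANKL and 4.49, 4.13 and 3.63 in RANKL + UD. All control libraries are far above the rest, and the RANKL and RANKL + UD libraries overlap. RANKL was at 12.8% of control, a log2 difference of -2.88 ± 0.10, the lowest share among the 6 genes. The difference of RANKL + UD from RANKL was 0.17 ± 0.11 on the log2 scale, with a 95% interval of -0.04 to 0.39.

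Plau (ENSMUSG00000021822, chromosome 14, 20886728 to 20893453, plus strand) encodes urokinase and had the highest FPKM of the 9 genes in every group. Its libraries were at 38.50, 41.08 and 39.20 FPKM in control, 165.81, 166.50 and 165.42 in RANKL and 112.03, 107.05 and 111.31 in RANKL + UD. The groups do not overlap, and RANKL + UD again lies between the others. RANKL was at 419% of control (log2 difference 2.15 ± 0.05). RANKL + UD was at 66.4% of RANKL (-0.68 ± 0.05) and at 278% of control.

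Plaur (ENSMUSG00000046223, chromosome 7, 24161909 to 24175393, plus strand) encodes the receptor that holds urokinase on the cell surface. Its libraries were at 20.76, 20.74 and 21.97 FPKM in control, 11.63, 13.58 and 13.37 in RANKL and 8.65, 7.59 and 6.77 in RANKL + UD. The order was control, RANKL, RANKL + UD downwards, with no overlap. RANKL was at 60.8% of control (log2 difference -0.63 ± 0.09) and RANKL + UD at 59.6% of RANKL (-0.83 ± 0.09). Enzyme and receptor thus differed in direction in RANKL against control and had the same direction in RANKL + UD against RANKL.

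**Figure D3:**
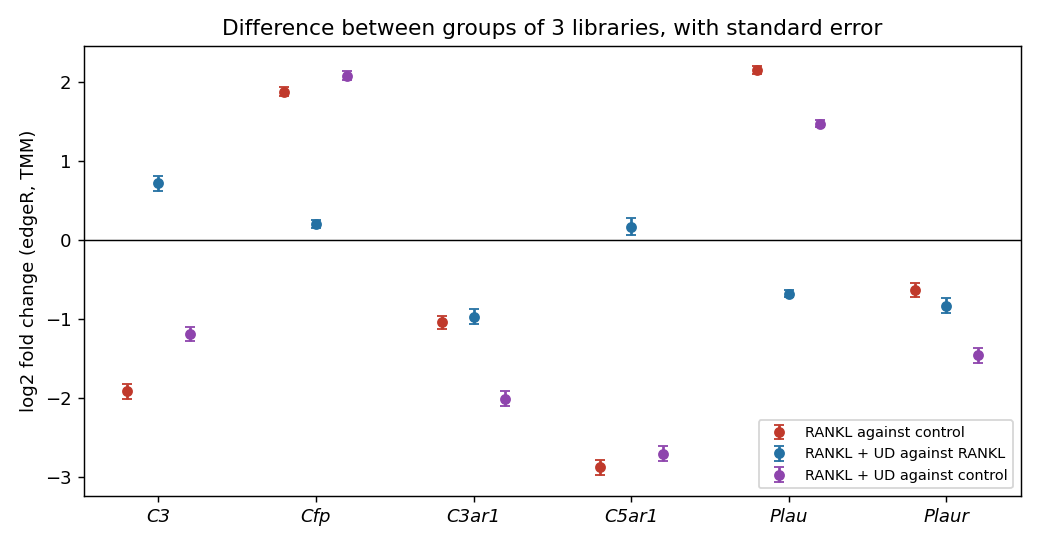
Log2 fold change with its standard error (vertical axis) of the 6 expressed genes in each of the 3 comparisons, which share libraries with one another. C3ar1 and Plaur lie below 0 in all 3 comparisons and Cfp lies above 0 in all 3, while C3 and Plau lie on opposite sides of 0 in RANKL against control and in RANKL + UD against RANKL.

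Over the 9 libraries, log2(CPM + 1) of C3ar1 and Plaur ran together with a Pearson r of 0.98, and C3 ran opposite to Plau with an r of -0.99. C3 and C3ar1, a ligand source and its receptor, had an r of 0.63, and Plau and Plaur an r of -0.60. These values are descriptions over 9 libraries in 3 groups, and the libraries of a group share its treatment. The gene most like Plau among all genes tested was Serpind1 (r 0.999), which encodes heparin cofactor II, an inhibitor of thrombin, and its mean was 0.04 FPKM in control, 6.13 in RANKL and 2.43 in RANKL + UD. It was followed by Layn and Arhgap10. The 3 genes most like C3 included Ly6e and Oas2, genes of the interferon response, beside Incenp. Ly6e was at 193 FPKM in control, 60.7 in RANKL and 99.5 in RANKL + UD, and Oas2 was at 29.3, 14.0 and 19.5. For C3ar1 they were Lilrb4b, an inhibitory receptor of myeloid cells, Wasf2 and Mcoln2. For C5ar1 they were Il18rap, a subunit of the interleukin-18 receptor, Lgals9 and Lsp1. For Plaur they included Fcgr2b, the inhibitory Fc receptor, at 11.3, 6.03 and 3.57 FPKM, beside Adssl1 and Metrnl. For Cfp they were Rab15, Ppp1r12b and Cfdp1, of which Rab15 was at 0 FPKM in control, 6.65 in RANKL and 10.2 in RANKL + UD.

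Promoter sequences were taken from RefSeq on GRCm38.p6, where 7 of the 9 genes matched; C1qa and Plau did not. The window runs from 250 bases before to 50 bases after the annotated start of transcription, and the bases before the start are printed. It was searched on both strands for motifs of factors known in macrophages and osteoclasts. Capitals mark matches to the PU.1 core GAGGAA (28.3% of all 32851 promoters hold it), the AP-1 site TGANTCA (7.81%), the C/EBP site TTGCNNAA (10.8%), the interferon response motif GAAANNGAA (8.56%) and the TATA box TATAAA (13.6%). Left unmarked is the NFAT core GGAAA, which 61.3% of all promoters and 7 of the 7 hold. The E-box CACGTG of MiT/TFE factors, in 7.15% of promoters, was in 0 of the 7. A match is a description of letters and no evidence of binding.

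C3ar1 and Plaur are shown first because their levels ran together over the libraries, and they are also the 2 genes of the 7 whose window holds the AP-1 site. Any part of the AP-1 site in their levels was not tested. In C3ar1 it begins 22 bases before the start (chr6:122856158-122856407, minus strand), and in Plaur 69 bases before it (chr7:24462233-24462482, plus strand), where a C/EBP match follows at 59 bases and PU.1 matches lie at 216 and 131 bases.
C3ar1: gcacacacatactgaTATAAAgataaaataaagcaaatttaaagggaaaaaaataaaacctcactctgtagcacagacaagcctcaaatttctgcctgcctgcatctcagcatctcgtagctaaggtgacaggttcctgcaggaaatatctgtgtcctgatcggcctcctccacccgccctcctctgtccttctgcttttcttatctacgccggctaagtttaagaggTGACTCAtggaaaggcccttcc
Plaur: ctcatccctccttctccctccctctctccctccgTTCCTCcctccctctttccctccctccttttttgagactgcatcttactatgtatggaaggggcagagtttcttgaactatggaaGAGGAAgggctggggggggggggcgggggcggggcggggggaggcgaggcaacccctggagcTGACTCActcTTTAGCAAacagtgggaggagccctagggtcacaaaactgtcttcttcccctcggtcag

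C3 and C5ar1 are shown as the genes with the lowest levels relative to control in RANKL among the 6 expressed genes, and Cfp as the gene that was higher in both steps. C3 (chr17:57228137-57228386, minus strand) has a C/EBP match that begins 45 bases before the start, and a TATA box match that begins at base 15 after it, outside the printed stretch. C5ar1 (chr7:16259339-16259588, minus strand) has an interferon response match 66 bases before the start, which overlaps an NFAT core. Cfp (chrX:20931556-20931805, minus strand) has no marked match before the start and PU.1 matches at bases 7 and 23 after it.
C3: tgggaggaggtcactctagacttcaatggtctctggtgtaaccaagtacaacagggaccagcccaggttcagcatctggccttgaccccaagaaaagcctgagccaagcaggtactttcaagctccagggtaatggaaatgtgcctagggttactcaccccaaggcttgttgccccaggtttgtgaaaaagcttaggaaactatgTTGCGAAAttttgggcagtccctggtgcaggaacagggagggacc
C5ar1: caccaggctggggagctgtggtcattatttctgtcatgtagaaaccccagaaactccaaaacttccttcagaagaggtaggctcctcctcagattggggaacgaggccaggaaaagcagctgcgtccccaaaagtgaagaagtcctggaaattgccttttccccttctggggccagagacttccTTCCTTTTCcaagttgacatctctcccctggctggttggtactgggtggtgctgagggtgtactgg
Cfp: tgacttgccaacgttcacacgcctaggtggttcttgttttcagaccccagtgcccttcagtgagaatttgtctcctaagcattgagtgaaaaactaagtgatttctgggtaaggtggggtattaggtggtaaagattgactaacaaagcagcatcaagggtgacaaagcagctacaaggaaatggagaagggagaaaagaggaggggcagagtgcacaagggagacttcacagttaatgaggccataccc

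**Figure D4:**
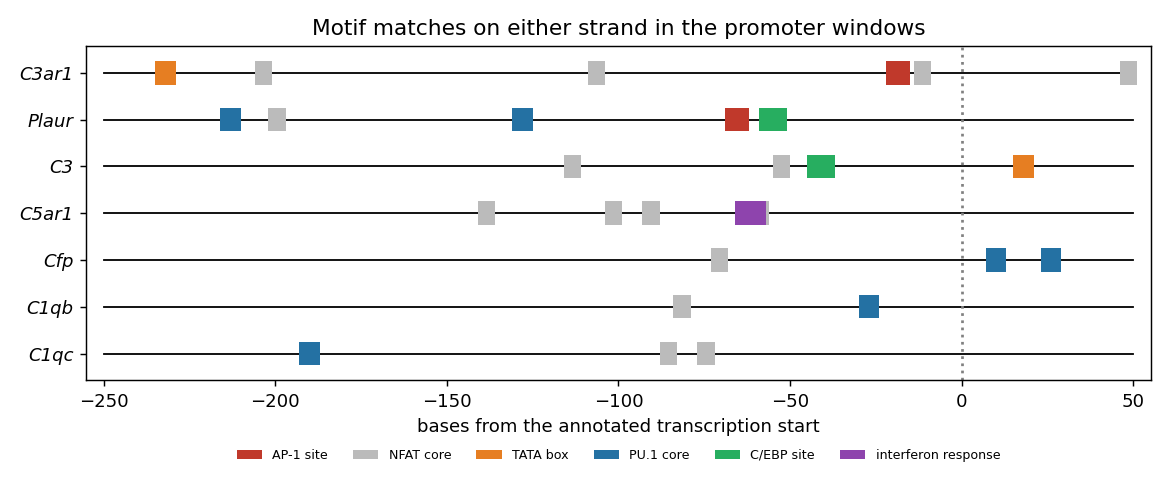
Motif matches on either strand (coloured boxes) in the windows of the 7 genes with a RefSeq promoter, by bases from the annotated start of transcription (horizontal axis, dotted line at the start). The AP-1 boxes lie in C3ar1 and Plaur only, at 22 and 69 bases before the start, and the NFAT core is found in all 7.

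The other genes of both systems were taken from lists of known components. Of 45 other complement genes, 11 had 0 counts in every library and 9 passed the filter of at least 1 FPKM in at least 3 libraries. Of these 9, 3 were higher and 5 lower in RANKL than in control, with a median log2 difference of -0.31 against -0.03 over all genes tested, of which 27.3% were higher and 30.2% lower. Between RANKL + UD and RANKL 1 was higher and 5 were lower, with a median of -0.46 against 0.005, beside 18.6% and 20.2% of all genes tested. The single higher gene became 0 without RANKL replicate 1, RANKL replicate 2 or RANKL + UD replicate 3. In RANKL + UD against control 2 were higher and 5 lower, with a median of -1.06 against -0.002, beside 26.7% and 27.3%. C1ra and Cd93 passed the filter through the control libraries alone, so their lower level elsewhere was built into the filter.

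Among initiation and convertase genes, C1ra, the C1r protease that partners C1q, was at 5.22, 5.50 and 5.55 FPKM in control, 0.26, 0.52 and 0.58 in RANKL and 0.61, 0.60 and 0.68 in RANKL + UD. It fell by 3.50 on the log2 scale in RANKL against control. Fcna, a ficolin of the lectin pathway, was at 16.3 ± 1.57 FPKM (mean ± SD, n = 3) in control, 12.3 ± 0.733 in RANKL and 7.76 ± 1.18 in RANKL + UD. Its call in RANKL against control was lost without control replicate 1 or 3, or without RANKL replicate 1 or 3, with a log2 difference of -0.26 to -0.31 in these fits. The other 16 genes of this list did not pass the filter. None of the 7 terminal components passed it either, and 5 of them, among them C6 and Hc, which encodes C5, had 0 counts in every library.

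Among the other receptors, Itgam and Itgax, the alpha subunits of the C3 fragment receptors CR3 and CR4, differed in direction in RANKL against control. Itgam, which is also one of the macrophage markers above, was at 72.5 ± 4.26, 22.8 ± 1.51 and 17.6 ± 0.905 FPKM in control, RANKL and RANKL + UD. Itgax rose from 14.1 ± 0.348 FPKM in control to 40.9 ± 1.84 in RANKL, and fell to 16.8 ± 1.09 in RANKL + UD, a log2 difference of -1.37 from RANKL. Their shared beta subunit Itgb2 was at 127 ± 6.56, 166 ± 5.46 and 124 ± 0.656 FPKM. Cd93, a receptor of phagocytes once taken for a C1q receptor, was at 1.27 ± 0.228 FPKM in control, 0.223 ± 0.0321 in RANKL and 0.0733 ± 0.0404 in RANKL + UD. All 4 receptors tested were called lower in RANKL + UD than in RANKL by edgeR, as were 20.2% of all genes tested. Cd93 lost this call with limma on log2(FPKM + 1) and on log2(FPKM + 0.1).

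Among the regulators, Cd59a, an inhibitor of the membrane attack complex, rose from 1.2 ± 0.202 FPKM in control to 5.51 ± 0.24 in RANKL and was at 5.86 ± 1.22 in RANKL + UD. Cr1l, which restrains the C3 convertase on mouse cells, was at 12.8 ± 0.542, 12.8 ± 0.338 and 13.1 ± 0.45 FPKM and was not called in any comparison.

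**Figure D5:**
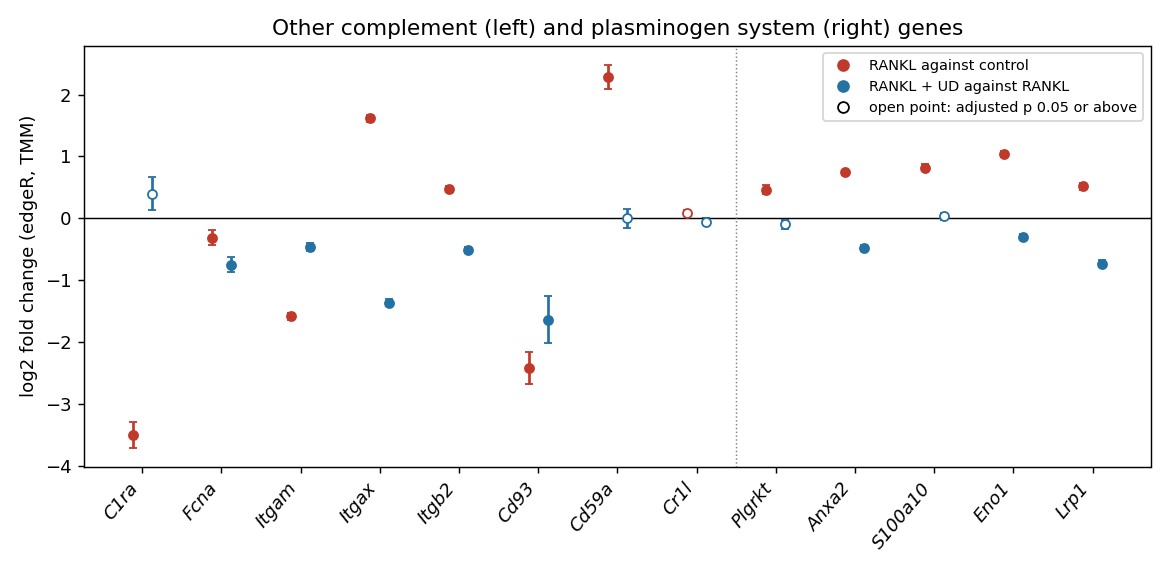
Log2 fold change with its standard error (vertical axis) of other complement genes (left of the dotted line) and plasminogen system genes (right) named in the text, with open points for an adjusted p of 0.05 or above. Itgax lies at 1.62 in RANKL against control and at -1.37 in RANKL + UD against RANKL, and Itgam lies below 0 in both.

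Of 20 other plasminogen system genes, 4 had 0 counts in every library and 6 passed the filter. In RANKL against control 5 of the 6 were higher and 0 lower, with a median log2 difference of 0.63 against -0.03 over all genes tested, of which 27.3% were higher and 30.2% lower. Between RANKL + UD and RANKL 0 were higher and 3 lower, with a median of -0.35 against 0.005, beside 18.6% and 20.2% of all genes tested. In RANKL + UD against control 4 were higher and 1 lower, with a median of 0.31 against -0.002, beside 26.7% and 27.3%. The genes that rose with RANKL were all receptors of plasminogen or of urokinase complexes. Anxa2, part of the annexin A2 and S100A10 complex that binds plasminogen and its activator, was at 171 ± 3.12 FPKM in control, 269 ± 13.5 in RANKL and 204 ± 0.832 in RANKL + UD, and it overlaps an antisense gene, Gm16144, of at most 1.20 FPKM. S100a10 was at 187 ± 2.28, 310 ± 19.3 and 336 ± 18 FPKM and was not called between RANKL and RANKL + UD. Eno1, alpha-enolase, a glycolytic enzyme that also binds plasminogen at the surface, was at 149 ± 9.12, 290 ± 12.6 and 250 ± 4.43 FPKM. Plgrkt, a membrane receptor of plasminogen, was at 10.3 ± 0.567, 13.4 ± 0.92 and 13.2 ± 0.168 FPKM. Lrp1, which takes up urokinase complexes, was at 55.3 ± 3.89, 74.7 ± 5.13 and 47.7 ± 2.17 FPKM, and fell by 0.73 on the log2 scale in RANKL + UD against RANKL.

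Plg, the gene of plasminogen itself, had 0 counts in all 9 libraries. The tissue-type activator Plat was at most 0.07 FPKM, and the 3 fibrin chain genes had 0 counts in every library. In the annotation list of the table for the KEGG pathway of complement and coagulation cascades, which holds 8 of the 9 genes (Cfp is not in it), 15 of the 100 others were tested. Of those 15, 6 were higher and 6 lower in RANKL against control, and 2 were higher and 6 lower in RANKL + UD against RANKL. Over all genes tested these shares were 27.3% and 30.2%, and 18.6% and 20.2%. That list also contains Tardbp, an RNA-binding protein gene that overlaps Masp2, so its counts are those of the annotation and not of a curated pathway.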

How the data were processed

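Poly(A)-selected RNA of 9 RAW264.7 libraries was sequenced on the Illumina NovaSeq platform, and libraries were grouped by their labels. The authors deposited raw read counts per gene and the FPKM they computed from count, exonic length and library total, and the deposited exonic length of each gene is a number of bases. The FPKM could be recomputed for 100% of genes within 0.006. The aligner, the counting tool and whether counting used strand are not given in the sources used here. Reads of overlapping genes may therefore be shared, although 0 of the 9 genes overlap an expressed gene. The submitters' processing notes name mm10, but the coordinates of the table differ from the GRCm38 annotation for the 9 genes, with equal lengths, so table coordinates are given without a build and RefSeq promoter coordinates with theirs.

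Counts were fitted with edgeR 4.0.16 in R 4.3.3 (quasi-likelihood test, TMM scaling, all 9 libraries, group only, Benjamini-Hochberg adjustment) for 11995 genes (1 FPKM or more in 3 or more libraries). The procedure was tested on simulated data. The study names DESeq2, which was an alternative (DESeq2 1.42.0), beside limma 3.58.1 on log2(FPKM + 1) and log2(FPKM + 0.1), RLE size factors, total counts, other filters, the replicate block, only the 6 libraries compared, and each library left out. The 9 genes, the lists and the motifs were chosen with earlier results of these data known. Named are all 9 genes, listed genes with an adjusted p under 0.05 in at least 1 comparison, the 3 genes with the highest Pearson r for each, and a few listed genes without a call (Cr1l, C6, Hc, Plg, Plat) that were added after their values were seen. Single results for some listed genes are not reported here, although the list counts include them. Similarity used log2(CPM + 1). Libraries of 1 group differed by a chi-square per degree of freedom of 3.02 to 9.92, so none was a copy of another.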

Additional observations from a re-analysis of the deposited data

How the results depend on the processing

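The log2 differences of the 6 expressed genes kept their direction and their side of an adjusted p of 0.05 in all 324 results, 18 differences under 18 alternatives each, and 0 reversed. All were refits of the same 9 libraries, and the genes were chosen with these differences in view. The stable calls therefore describe the processing only and are no test of the genes. C5ar1 in RANKL + UD against RANKL ranged from 0.09 to 0.26 and was not called in any. Of 810 such results for the other listed genes, 799 kept their call, 9 lost it (among them those of Cd93 and Fcna given above), 2 gained one and 0 reversed. For these genes a change of sign counted as reversed only where at least 1 of the fits made a call. Scaling shifted all genes together: with total counts 3350 genes were called higher in RANKL + UD against RANKL, 66.2% of those called against 48.0% with TMM, and the share was 36.8% against 47.5% in RANKL against control. Limma called 1556 genes lower in RANKL + UD against RANKL on log2(FPKM + 1) and 1536 on log2(FPKM + 0.1), against 2418. Looser filters admitted low genes. The other complement genes called lower in RANKL against control were 11 with filterByExpr and 10 with no filter, against 5. They were likewise 11 and 10 in RANKL + UD against control, against 5. Over all genes, 4024 and 3949 were called lower in RANKL against control, against 3628. In RANKL + UD against control these were 3680 and 3571, against 3276. The numbers tested under these filters are not reported here, so no share is given. Of the added complement genes, C1rb and C5ar2 passed filterByExpr through control. Lrp1 was the single plasminogen system gene lower in RANKL + UD against control, and 2 genes were with no filter. Leaving out a library gave 1 to 2 there, with 2 without RANKL + UD replicate 3, and 0 to 1 complement genes higher in RANKL + UD against RANKL.

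Deviations of libraries with the same replicate number correlated at -0.03 to 0.17. Libraries with different numbers were not compared in this way, so whether the numbers pair the libraries was not tested. With the replicate block, 2347 genes were higher and 2518 lower in RANKL + UD against RANKL, against 2233 and 2418 without it, and no call of the 6 genes changed. Exact tests of 3 against 3 libraries cannot go below a p of 0.1. At this depth, levels of C1q chains rest on at most 11 reads per library.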

Other observations

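Below the filter on low values, 6 further complement genes, C5ar2, Cfb, C1rb, C1rl, C4b and Clu, had every control library above all others. The genes of this paragraph were chosen after their values were seen. In either direction, groups did not overlap for 61.7% of all genes tested in RANKL against control and 59.9% in RANKL + UD against control. The share among genes below the filter was not computed. For each of these 6 complement genes the RANKL and RANKL + UD libraries overlap. With filterByExpr in place of the filter on FPKM, edgeR called all 6 lower in RANKL against control, beside 4024 genes called lower in all. The 6 were chosen because control lay above the rest, so their calls follow from that choice and add nothing to it. The number of genes tested with filterByExpr is not reported here, so no share is given. C1rb had 19, 14 and 17 reads in control and at most 2 in any other library, and C5ar2 had 28, 28 and 32 against at most 10. These genes passed filterByExpr through control, so their lower call was built into that filter. Outside control, Cfb had 0 to 10 reads per library and C4b 4 to 15. C1rl had 6 to 24 there and Clu 17 to 24. Whether these genes passed through control was not tested. C5ar2, the other C5a receptor, was at 0.47, 0.40 and 0.56 FPKM in control, 0.03, 0.10 and 0.15 in RANKL and 0.11, 0.07 and 0.08 in RANKL + UD. Cfb, factor B, the protease of the alternative pathway convertase, was at 0.34, 0.38 and 0.31 FPKM in control, 0.13, 0.09 and 0.04 in RANKL and 0.00, 0.04 and 0.20 in RANKL + UD. C1rb, a close copy of C1ra with which reads may be shared, was at 0.46, 0.29 and 0.44 FPKM in control and at most 0.05 in the other libraries. C1rl was at 0.89, 0.72 and 1.08 FPKM in control, 0.13, 0.10 and 0.42 in RANKL and 0.20, 0.26 and 0.15 in RANKL + UD. C4b, a form of C4, was at 0.17, 0.35 and 0.24 FPKM in control, 0.04, 0.12 and 0.05 in RANKL and 0.11, 0.16 and 0.04 in RANKL + UD. Clu, clusterin, a fluid-phase regulator of the terminal pathway, was at 0.48, 0.71 and 0.58 FPKM in control, 0.28, 0.29 and 0.36 in RANKL and 0.31, 0.30 and 0.32 in RANKL + UD, and unlike the others it was not called with no filter. Serping1, the C1 inhibitor, had the opposite direction, with 0 reads in each control library, 25, 9 and 2 in RANKL and 3, 7 and 10 in RANKL + UD. It was called higher in RANKL and in RANKL + UD against control with no filter, and it did not pass filterByExpr.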
